A study of Mus musculus with 6 samples.

Results

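The genes described here are the transcription factors of the CREB family and the coactivators that bind them: the CRTC coactivator genes Crtc1, Crtc2 and Crtc3, the factors Creb1, Crem, Atf1 and Creb3l3, and the acetyltransferase genes Crebbp and Ep300. All 9 were found by symbol among the 55450 genes of the table, each as 1 row, and all 9 passed the filter on low counts. They were measured in liver of C57BL/J mice at 10 weeks of age. The 3 knockout (KO) mice were LKB1 fl/fl animals, with loxP sites flanking the gene for LKB1 (gene symbol Stk11), and the 3 controls were wild type (WT). Both groups received AAV8 Cre at 6 weeks, so the controls carry the virus and the recombinase as well, and the left lobe was taken 4 weeks later. The promoter that drives Cre is not given in the sources used here. The labels describe each library as a separate mouse. The tissue is whole liver, so counts come from all of its cells, and fewer cells of a type cannot be told apart from less RNA per cell. The subject of the series is hepatic metabolism after loss of LKB1, and the comparison of KO with WT asks which transcripts differ when LKB1 is lost.

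LKB1 is a serine/threonine kinase that activates AMPK and related kinases, among them the salt-inducible kinases (SIKs). SIKs phosphorylate CRTC proteins, which are then held in the cytoplasm by 14-3-3 proteins, and glucagon acting through cAMP and protein kinase A inhibits SIKs and phosphorylates CREB, so that CRTCs enter the nucleus and activate genes of fasting metabolism in hepatocytes. This control acts largely on proteins, and transcript levels do not report phosphorylation or location. CREB1, CREM and ATF1 form one subfamily of leucine zipper factors that bind the cAMP response element, CREB-binding protein (encoded by Crebbp) and p300 (encoded by Ep300) are acetyltransferases recruited by them, and CREB3L3 is a liver factor held in the endoplasmic reticulum membrane until it is cleaved.

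The DNA to which these factors bind is shown with 4 promoters of genes whose values are described here. The cAMP response element is TGACGTCA, a palindrome, and its half-site is TGACG, which reads CGTCA on the other strand. Both were searched on both strands in RefSeq promoter windows of 300 bases (250 before and 50 after a start site, build GRCm38.p6), and each full element also counts as 2 overlapping half-sites. The 250 bases before the start site are printed 5′ to 3′ on the gene's strand, with half-sites on either strand in capitals. Nr4a1 and Nr4a2 are shown because they passed the test between KO and WT and held 4 half-sites each, and Dusp1 for its full element. Creb3l3 is shown as the only one of the 9 genes whose difference in response between subsets of libraries passed the test described below.
Nr4a2 (chr2:57124004-57124253, minus strand): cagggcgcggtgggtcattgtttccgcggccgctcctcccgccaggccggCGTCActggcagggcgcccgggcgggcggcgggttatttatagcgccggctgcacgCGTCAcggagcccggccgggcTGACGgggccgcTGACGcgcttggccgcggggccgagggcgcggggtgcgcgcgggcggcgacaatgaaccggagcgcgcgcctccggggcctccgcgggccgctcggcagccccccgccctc
Nr4a1 (chr15:101266596-101266845, plus strand): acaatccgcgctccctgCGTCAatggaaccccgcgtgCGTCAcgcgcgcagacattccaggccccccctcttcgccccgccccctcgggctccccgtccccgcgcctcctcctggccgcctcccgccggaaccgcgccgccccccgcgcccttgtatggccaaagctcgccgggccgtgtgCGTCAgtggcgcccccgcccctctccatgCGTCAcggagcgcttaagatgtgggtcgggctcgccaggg
Dusp1 (chr17:26508473-26508722, minus strand): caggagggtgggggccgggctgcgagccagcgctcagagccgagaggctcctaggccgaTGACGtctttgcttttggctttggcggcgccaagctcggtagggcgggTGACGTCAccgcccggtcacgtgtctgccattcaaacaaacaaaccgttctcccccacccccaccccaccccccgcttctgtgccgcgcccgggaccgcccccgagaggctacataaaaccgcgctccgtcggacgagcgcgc
Creb3l3 (chr10:81092592-81092841, minus strand): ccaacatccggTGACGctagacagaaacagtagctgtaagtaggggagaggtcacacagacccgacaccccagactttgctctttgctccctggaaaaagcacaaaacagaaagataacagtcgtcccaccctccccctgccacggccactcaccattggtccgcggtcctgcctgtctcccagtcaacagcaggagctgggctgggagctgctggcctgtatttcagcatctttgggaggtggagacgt

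Half-sites began 200, 144, 123 and 111 bases before the Nr4a2 start and 233, 213, 69 and 40 bases before the Nr4a1 start. In Dusp1 the full element began 143 bases before the start, and a further half-site lay at 191. Creb3l3 has 2 windows. The printed one belongs to a start site inside the gene and has 1 half-site, 239 bases before it, and the window at the 5′ end of the gene has none. Of the 9 genes, 7 were found in the promoter table, and 2 of the 7 held a half-site, Creb3l3 and Atf1 (90 bases before its start). No full element was present in their windows. Among 13 known targets of CREB and CRTC described below, 11 were found in the table and 8 (72.7%) held a half-site, against 23.0% of 27025 genes with a window, and 1 held a full element, against 2.03%. Of the listed genes described below that passed the test between KO and WT, 6 were found in the table and 3 (50%) held a half-site. Tat, Atf5 and Pde4d passed the test and held none. A list of known CREB targets is not independent of the element, and a match in these letters is a description only.

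The Stk11 transcript lay at 22.1, 14.4 and 11.4 CPM in KO replicates 1 to 3 and at 66.1, 64.2 and 69.7 CPM in WT replicates 1 to 3, where CPM is the count relative to the library size, scaled between samples. Stk11 fell by 2.06 ± 0.247 (SE) on the log2 scale, and its adjusted p in edgeR's quasi-likelihood test was 0.0167. With 1 library left out its log2 fold change lay between -2.37 and -1.87 and its adjusted p between 0.000659 and 0.104, under 0.05 in 2 of the 6 fits. The libraries had 47659122 to 56147667 counts. Replicate 1 of each group had 29243 to 42472 counts of Xist and at most 6 over 4 Y-linked genes, and the other 4 libraries had at most 16 counts of Xist and 6146 to 8199 over the Y-linked genes, a difference that the labels do not describe. KO 1 also stood apart from KO 2 and KO 3 for several of the genes below, so results are also given for the other 4 libraries, called the Y-linked libraries, and for both replicates 1, called the Xist pair, which sets 1 library against 1 with no replicate check. Hepatocyte markers (Alb, Ttr, Apoa1, Cps1 and Serpina1a) were abundant in every library, with summed levels of 22700 to 66700 CPM in KO and 75600 to 116000 CPM in WT.

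Crem was the 1 gene of the 9 to pass an adjusted p of 0.05. Across all 14539 genes tested, 3.37% passed the threshold in either direction and 2.15% passed it with a higher level in KO. Groups did not overlap for 4 of the 9 genes (44.4%), with Crem and Crtc2 higher and Crtc1 and Crtc3 lower in every KO library, and such separation was found for 32.4% of all genes. The same 4 had an unadjusted p under 0.05, which 26.3% of all genes had. The median log2 fold change was -0.10 over the 9 genes and 0.01 over all genes tested. The 9 genes did not share a direction, and 4 had a higher and 5 a lower fitted mean in KO.

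**Figure D1:**
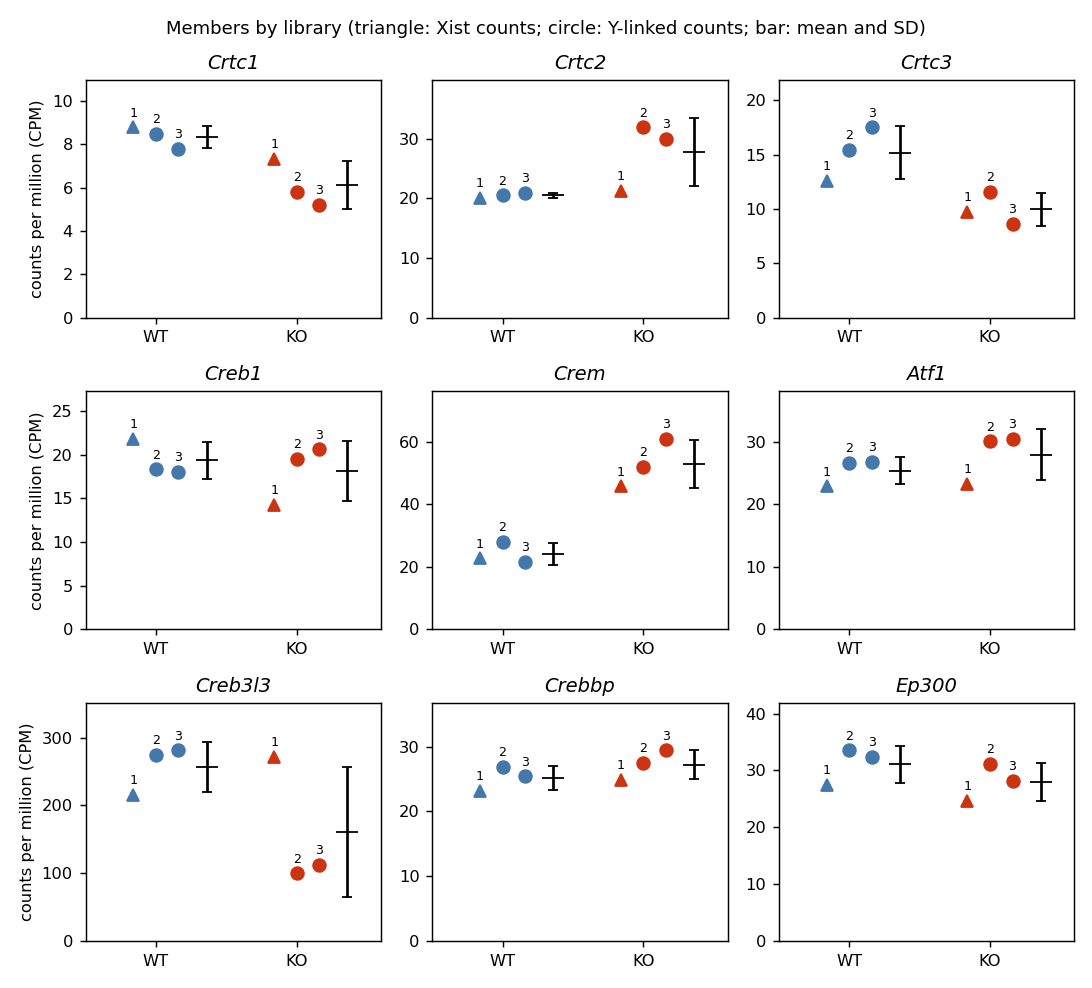
Normalised counts (CPM, vertical axis from 0) of the 9 genes in each library, WT in blue and KO in red, with replicate numbers beside the points, triangles for the Xist pair, circles for the Y-linked libraries, and the mean with its SD (n = 3) as a black bar. Crem lies at 45.8 to 61.0 CPM in KO and 21.6 to 28.1 CPM in WT, and Creb3l3 is low in KO 2 and KO 3 only.

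Crem (ENSMUSG00000063889.16, GRCm38 chromosome 18, 3266048 to 3337748, minus strand, protein-coding) encodes CREM, the cAMP response element modulator, whose isoforms include activators and repressors. Its levels were 45.8, 52.0 and 61.0 CPM in KO 1 to 3 and 22.7, 28.1 and 21.6 CPM in WT 1 to 3. The lowest KO library was above the highest WT library by a wide margin, and KO 1, which lay within the WT range for Creb3l3 and Atf1, was above WT here. The mean was 52.9 ± 7.64 CPM in KO and 24.1 ± 3.47 CPM in WT (SD, n = 3 each). Crem thus rose 2.19-fold, a log2 fold change of 1.13 ± 0.163 (SE), with an adjusted p of 0.0255 in edgeR's quasi-likelihood test. The log2 ratio was 1.19 among the Y-linked libraries (adjusted p = 0.00563 in their own edgeR fit) and 1.01 within the Xist pair, and the interaction of group with this state was -0.17 ± 0.278 (adjusted p = 0.765 in edgeR).

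The size of the Crem difference was steadier than its call. With 1 library left out the log2 fold change stayed between 1.02 and 1.26, but the adjusted p in edgeR was 0.00367 without KO 1 and between 0.0628 and 0.14 in the 5 refits that left out KO 2, KO 3, WT 1, WT 2 or WT 3. The gene has 39 annotated transcripts, 32 of them protein-coding, whose start sites span 56670 bases in 6 clusters at least 1 kb apart. One internal promoter of Crem is known to give ICER, a short repressor that cAMP induces. The counts are totals over the gene, so they do not show which promoter or isoform rose. The overlapping antisense gene Gm6225 had 7 to 23 counts per library against 1011 to 2890 for Crem, and 4.69% of the 76-base stretches in Crem transcripts occur in transcripts of other genes, mainly Gm6225.

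The genes whose levels ran most closely with Crem over the 6 libraries were Ndufaf7, Rabl3 and Gch1, with Pearson correlations of 0.9969, 0.9962 and 0.9945 on the log2 CPM scale. They were the nearest of 7382 protein-coding genes with a mean of at least 10 CPM. Ndufaf7 encodes an assembly factor of respiratory complex I, Rabl3 a small GTPase-like protein and Gch1 GTP cyclohydrolase, the first enzyme of tetrahydrobiopterin synthesis. Rabl3 had 16.1, 18.4 and 19.5 CPM in KO and 10.8, 11.8 and 10.1 CPM in WT, and passed the threshold (log2 fold change 0.73, adjusted p = 0.0417 in edgeR). Ndufaf7 and Gch1 did not, with log2 fold changes of 0.37 and 0.50 and adjusted p-values of 0.106 and 0.09. With 6 libraries and this many genes, high coefficients describe the ranking only.

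Creb1 (ENSMUSG00000025958.14, chromosome 1, 64532645 to 64604548) encodes CREB1, the founding member of the subfamily. It lay at 14.2, 19.5 and 20.6 CPM in KO 1 to 3 and at 21.8, 18.3 and 18.0 CPM in WT 1 to 3. The groups overlapped, with KO 1 the lowest and WT 1 the highest of the 6 libraries. Its log2 fold change was -0.10 ± 0.173 (SE, adjusted p = 0.75 in edgeR), with a 95% interval from -0.51 to 0.31. The sign depended on the libraries. Its log2 ratio was 0.14 among the Y-linked libraries and -0.62 within the Xist pair, and the interaction did not pass the threshold (adjusted p = 0.0963).

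Atf1 (ENSMUSG00000023027.13, chromosome 15, 100227819 to 100261244) encodes ATF1, the third factor of this subfamily. Its levels were 23.3, 30.1 and 30.5 CPM in KO and 22.9, 26.6 and 26.8 CPM in WT. In both groups replicate 1 was the lowest, and KO 1 lay within the WT range. The log2 fold change was 0.14 ± 0.145 (SE, adjusted p = 0.571 in edgeR), with a 95% interval from -0.20 to 0.48. Of the 76-base stretches of Atf1 transcripts 7.45% also occur in other genes, mainly the processed pseudogene Atf1-ps, which was given between 1.20 and 2.45 counts per library.

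Within the subfamily, Crem took a larger part in every KO library, which restates the levels above. The log2 ratio of Crem to Creb1 was 1.69, 1.41 and 1.56 in KO 1 to 3 and 0.0574, 0.616 and 0.266 in WT 1 to 3, without overlap. The means were 1.55 ± 0.138 and 0.313 ± 0.282 (SD, n = 3 each), a difference of 1.24. The levels of Crem and Creb1 already fix that these ratios do not overlap. The two-sided exact permutation p was thus bound to be 0.1, the smallest that 3 against 3 allows, and is no further result. When counts were divided by the annotated exon length, Crem made up 47.3%, 43.9% and 47.4% of the summed level of Creb1, Crem and Atf1 in KO and 29.7%, 32.2% and 26.7% in WT. Atf1 made up 45.7% to 49.0% in KO and 58.0% to 63.8% in WT, and Creb1 6.27% to 7.07% and 9.01% to 12.3%. The summed level of these 3 genes was 19.4 ± 2.76 CPM per kb in KO and 13.8 ± 0.926 CPM per kb in WT.

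Crtc2 (ENSMUSG00000027936.18, chromosome 3, 90254163 to 90264125) encodes the CRTC protein best known in liver, where it coactivates gluconeogenic genes with CREB. It lay at 21.3, 31.9 and 30.0 CPM in KO 1 to 3 and at 20.1, 20.5 and 20.9 CPM in WT 1 to 3. The WT libraries were close together, KO 1 was just above them, and KO 2 and KO 3 were well above. The log2 fold change was 0.44 ± 0.166 (SE, adjusted p = 0.159 in edgeR), which did not pass the threshold. Among the Y-linked libraries it was 0.57 (adjusted p = 0.0106), and within the Xist pair the log2 ratio was 0.09. The interaction of group and state was -0.49 ± 0.171, with an unadjusted p of 0.0297 and an adjusted p of 0.195.

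Crtc3 (ENSMUSG00000030527.15, chromosome 7, 80586627 to 80688877) encodes a CRTC protein studied mainly in fat tissue. Its levels were 9.74, 11.6 and 8.6 CPM in KO and 12.6, 15.4 and 17.5 CPM in WT, so that every KO library was below every WT library. The fitted log2 fold change, -0.60 ± 0.179 (SE), missed the threshold at an adjusted p of 0.0983 in edgeR. It was -0.71 among the Y-linked libraries (adjusted p = 0.0301) and had a log2 ratio of -0.36 within the Xist pair.

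Crtc1 (ENSMUSG00000003575.13, chromosome 8, 70382355 to 70439579) encodes the CRTC protein best known from brain. It was the least abundant of the 9 genes, with 7.34, 5.80 and 5.22 CPM in KO and 8.79, 8.47 and 7.78 CPM in WT. The groups did not overlap, though KO 1 was close to WT 3. The log2 fold change was -0.45 ± 0.174 (SE, adjusted p = 0.164 in edgeR), and it was -0.57 among the Y-linked libraries (adjusted p = 0.0356). These values rest on 246 to 446 counts per library.

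The Crtc2 share of the CRTC transcripts restates the levels above, with Crtc2 higher and Crtc1 and Crtc3 lower in every KO library. Crtc2 accounted for 76.0%, 82.2% and 84.5% of the length-scaled CRTC level in KO 1 to 3 and for 70.4%, 68.4% and 67.4% in WT 1 to 3. The means were 80.9% ± 4.41 and 68.7% ± 1.53 (SD, n = 3 each), a difference of 12.2 percentage points. Those levels already fix that the shares of Crtc2 do not overlap. The two-sided exact permutation p was thus bound to be 0.1, the smallest possible, and is no further result. The share of Crtc3 was lower in every KO library, with 10.1% to 14.4% against 18.3% to 23.4%, while the shares of Crtc1 overlapped, at 5.39% to 9.58% against 9.17% to 11.3%. The summed CRTC level was 8.33 ± 1.35 CPM per kb in KO and 7.29 ± 0.313 CPM per kb in WT, and KO 1 (6.85) was below all 3 WT libraries (6.96 to 7.59).

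**Figure D2:**
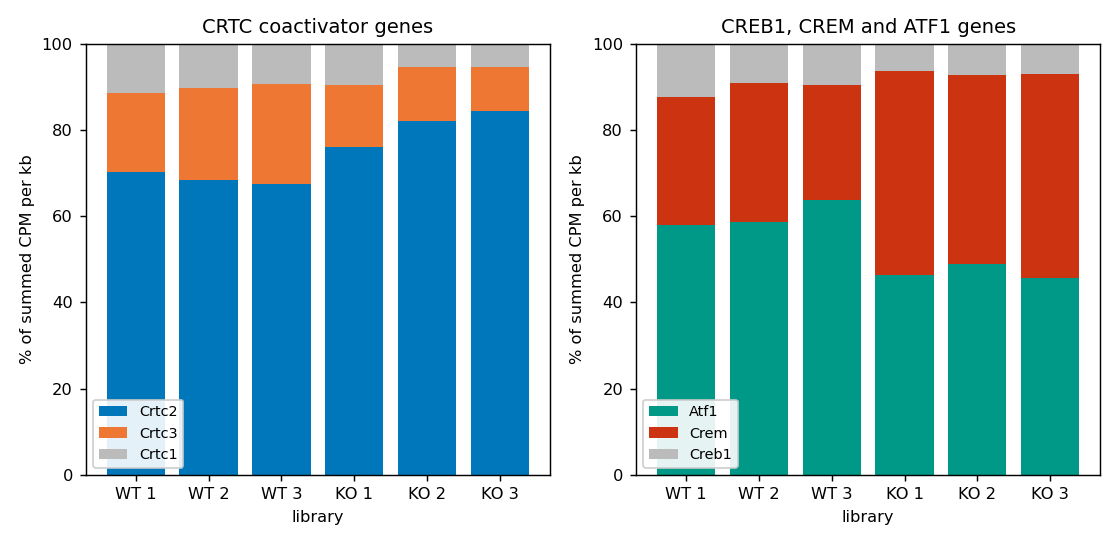
Share of each gene in the summed length-scaled level (percent of CPM per kb of annotated exon, vertical axis) of the CRTC genes (left) and of Creb1, Crem and Atf1 (right), 1 bar per library. The Crtc2 share is 67.4% to 70.4% in WT and 76.0% to 84.5% in KO, and the Crem share is 26.7% to 32.2% in WT and 43.9% to 47.4% in KO.

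Markers of other liver cells are given beside Crtc1 and Crtc3, which were lower in every KO library. The summed level of 5 endothelial markers (Pecam1, Kdr, Stab2, Clec4g and Lyve1) was 58.5 to 97.6 CPM in KO and 120 to 167 CPM in WT, and 4 of the 5 were lower in every KO library. The sums of 5 macrophage markers were 54.9 to 147 CPM in KO and 92.7 to 125 CPM in WT. Those of 5 stellate cell markers were 90.9 to 192 and 152 to 327 CPM, and those of 5 bile duct markers 24.8 to 74.2 and 39.5 to 72.7 CPM. The sums of 5 lymphocyte markers were 0.658 to 1.73 and 1.72 to 2.68 CPM. As for the 4 endothelial markers, 3 of the 5 hepatocyte and 2 of the 5 lymphocyte markers were lower in every KO library. The count was 0 for the macrophage, stellate cell and bile duct markers. Groups did not overlap, in either direction, for 32.4% of all genes. No marker of the 6 lists was at 0 in all libraries. Of the 30 markers 0 passed the threshold in edgeR, where 3.37% of all genes passed. An unadjusted p under 0.05 was found for 8 markers and for 26.3% of all genes. In DESeq2 7 markers passed and in limma voom 1, and the shares of all genes passing in these fits are not given here. The part of these cells in the values of Crtc1 and Crtc3 was not tested.

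Creb3l3 (ENSMUSG00000035041.8, chromosome 10, 81084324 to 81098874) encodes CREB3L3, also called CREBH, a membrane-bound factor of hepatocytes that controls genes of triglyceride handling and the fasting hormone FGF21. Its levels were 271, 99.7 and 112 CPM in KO 1 to 3 and 215, 274 and 281 CPM in WT 1 to 3. KO 2 and KO 3 were well below every WT library, while KO 1 lay inside the WT range. Over all 6 libraries the log2 fold change was -0.67 ± 0.392 (SE, adjusted p = 0.319 in edgeR), with a 95% interval from -1.6 to 0.26. Among the Y-linked libraries Creb3l3 fell by 1.39 on the log2 scale (adjusted p = 0.00213). Within the Xist pair the log2 ratio was 0.34, from 1 library against 1, with KO 1 inside the range of the WT libraries. The difference between these responses was itself tested as an interaction of group and state, which was 1.72 ± 0.243 on the log2 scale (SE, adjusted p = 0.0293 in edgeR), and 2.90% of all genes passed this test. The interaction rests on 1 KO and 1 WT library with Xist counts, so the replicate spread behind it comes from the Y-linked libraries alone. The summed hepatocyte markers were 66700, 22700 and 37600 CPM in KO 1 to 3 and 116000, 89400 and 75600 CPM in WT 1 to 3. They were lowest in KO 2 and KO 3, as were the sums of each other marker list. Unlike Creb3l3, the hepatocyte sum of KO 1 was below every WT library. The part of cell composition in the Creb3l3 values was not tested.

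**Figure D3:**
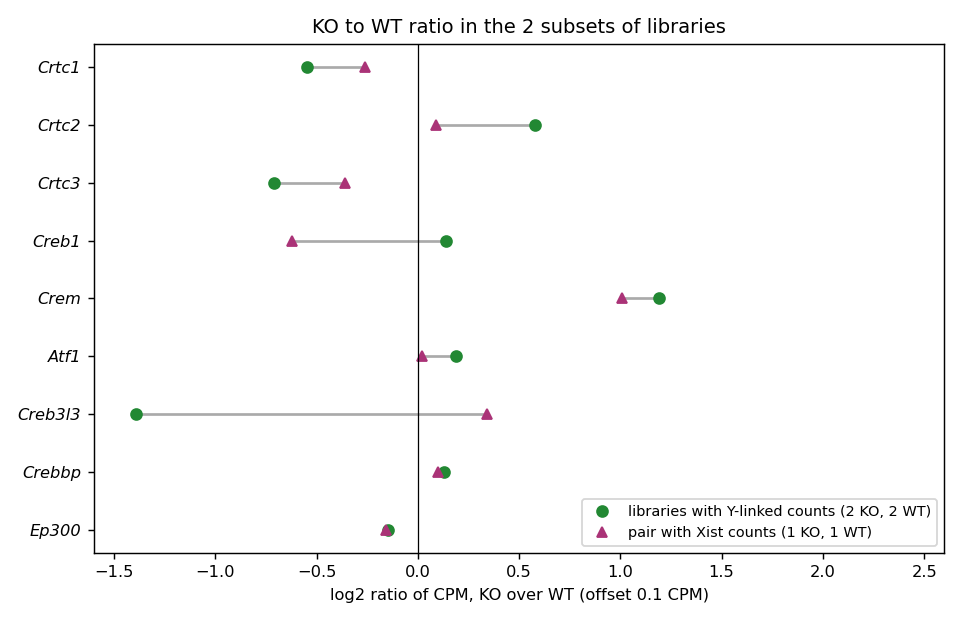
Log2 ratio of KO over WT (horizontal axis, from CPM with an offset of 0.1 CPM) of each gene for the Y-linked libraries (green circles) and the Xist pair (purple triangles). Crem is at 1.19 and 1.01, Creb3l3 at -1.39 and 0.34, and Creb1 at 0.14 and -0.62.

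Genes for the processing and known targets of CREB3L3 held no call. Of these 9 genes, 0 passed the threshold in edgeR, 4 had an unadjusted p under 0.05, and 3 passed in DESeq2 and 1 in limma voom. The shares of all genes passing in DESeq2 and limma voom are not given here. Among the Y-linked libraries 5 passed, all higher in KO, in a fit where 33.3% of all genes passed. Apoa4, an apolipoprotein of triglyceride-rich particles and a known CREB3L3 target, had 1590, 383 and 303 CPM in KO and 95.4, 56.6 and 62.6 CPM in WT. Every KO library was above every WT library, KO 1 most, and the log2 fold change of 3.41 ± 0.693 (SE) had an adjusted p of 0.0507 in edgeR. Fgf21 lay at 3.14, 9.25 and 1.72 CPM against 1.44, 0.424 and 0.877 CPM (adjusted p = 0.103), and the lipid droplet gene Cidec at 0.995, 8.30 and 1.21 CPM against 0.513, 0.521 and 0.663 CPM (adjusted p = 0.12). Mbtps2, the site-2 protease that releases CREB3L3 from the membrane, had a log2 fold change of 0.63 ± 0.207 (adjusted p = 0.121 in edgeR).

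Crebbp (ENSMUSG00000022521.10, chromosome 16, 4081328 to 4213997) lay at 24.8, 27.5 and 29.4 CPM in KO and at 23.1, 26.8 and 25.4 CPM in WT, with overlap. Its log2 fold change was 0.12 ± 0.119 (SE, adjusted p = 0.56 in edgeR), with a 95% interval from -0.17 to 0.40. Ep300 (ENSMUSG00000055024.12, chromosome 15, 81585351 to 81652077) lay at 24.6, 31.2 and 28.2 CPM in KO and at 27.4, 33.5 and 32.3 CPM in WT, again with overlap. Its log2 fold change was -0.15 ± 0.139 (adjusted p = 0.523), with a 95% interval from -0.48 to 0.18. Neither coactivator gene passed the threshold, and both intervals include 0.

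CREB-binding protein and p300 are close relatives, and the ratio of their transcripts within a library separated the groups. The log2 ratio of Crebbp to Ep300 was 0.012, -0.179 and 0.0593 in KO 1 to 3 and -0.244, -0.321 and -0.348 in WT 1 to 3. Each KO value was above each WT value, with means of -0.0359 ± 0.126 and -0.304 ± 0.0541 (SD, n = 3 each) and a difference of 0.268. The two-sided exact permutation p was 0.1, the smallest that the design allows, so this ratio could not pass 0.05. Among single genes 32.4% separated the groups, and the share of gene ratios that do so was not tested.

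**Figure D4:**
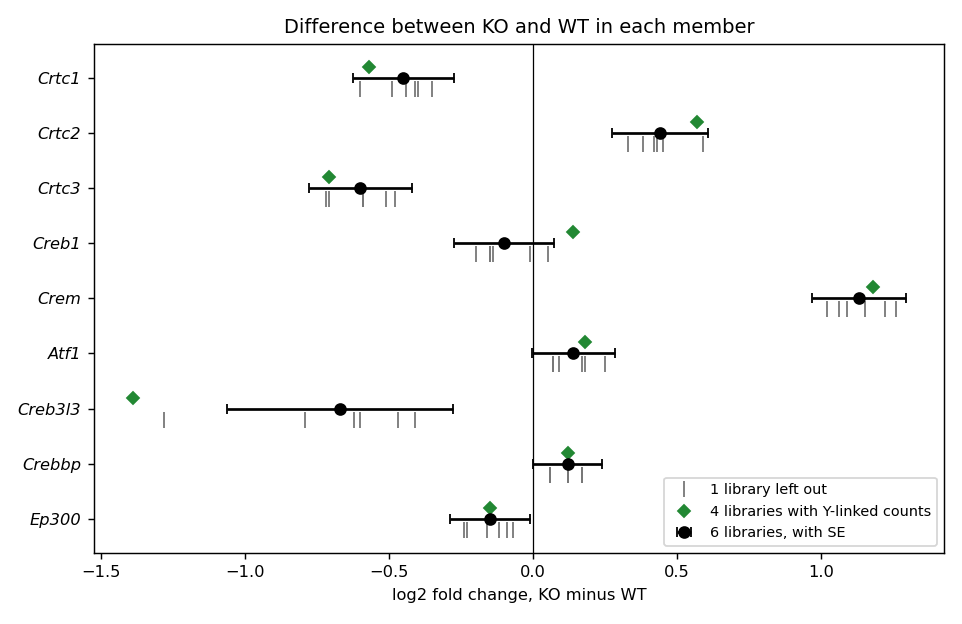
Log2 fold change of KO against WT (horizontal axis) for the 9 genes, with black points and SE bars for the fit to 6 libraries, grey ticks for the 6 fits that leave out 1 library and green diamonds for the Y-linked libraries. Crem stays between 1.02 and 1.26 when 1 library is left out, and Creb3l3 moves between -1.28 and -0.41.

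The calls differed when libraries were left out. Among the Y-linked libraries, which leave out both KO 1 and WT 1, 5 of the 9 genes (55.6%) passed the threshold in edgeR, namely Crem, Crtc1, Crtc2, Crtc3 and Creb3l3, where 33.3% of all genes passed. Without KO 1 alone 4 genes passed, Crem, Crtc1, Crtc2 and Creb3l3, where 30.2% of all genes passed. Atf1, Creb1, Crebbp and Ep300 did not pass in either fit.

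Per kilobase of annotated exon, the order of the WT levels was Creb3l3, Atf1, Crtc2, Crem, Ep300, Crebbp, Crtc3, Creb1 and Crtc1. Creb3l3 stood far above the rest, at 85.0 ± 12 CPM per kb (SD, n = 3), and Atf1 followed at 8.31 ± 0.702, Crtc2 at 5.01 ± 0.105 and Crem at 4.09 ± 0.589. Ep300 (2.18 ± 0.226), Crebbp (1.85 ± 0.136), Crtc3 (1.54 ± 0.252) and Creb1 (1.41 ± 0.154) came next, and the ranges of neighbours among them overlapped. The range of Ep300 lay above those of Crtc3 and Creb1, and that of Crebbp above that of Creb1. Within each WT library Ep300 was also above Crebbp. Crtc1 was lowest at 0.746 ± 0.0461. In KO Crem reached 8.98 ± 1.3 CPM per kb, above Crtc2 (6.78 ± 1.38) and within the range of Atf1 (9.15 ± 1.32), and its range overlapped that of both neighbours. Exon length here is the union over all annotated transcripts, so genes with long or rarely used exons are understated.

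The genes that act with these factors were grouped in 8 lists with 85 genes, all tested. Of these, 8 passed the threshold in edgeR, all higher in KO, where 3.37% of all genes tested passed in either direction and 2.15% with a higher level in KO. An unadjusted p under 0.05 was found for 29 of the 85 genes and for 26.3% of all genes tested. The median log2 fold change over the 85 genes was 0.14. With 1 library left out, 30 passed without KO 1, where 30.2% of all genes passed. The number was 2 without KO 2, 1 without KO 3, 5 without WT 1 and 0 without WT 2 or WT 3. The log2 fold changes of Sik1, Atf5, Pde4d, Nr4a2, Nr4a1, Tat and Sds kept their sign in all 6 fits. The lists were written with earlier results of these data known and are given as counts only.

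**Figure D5:**
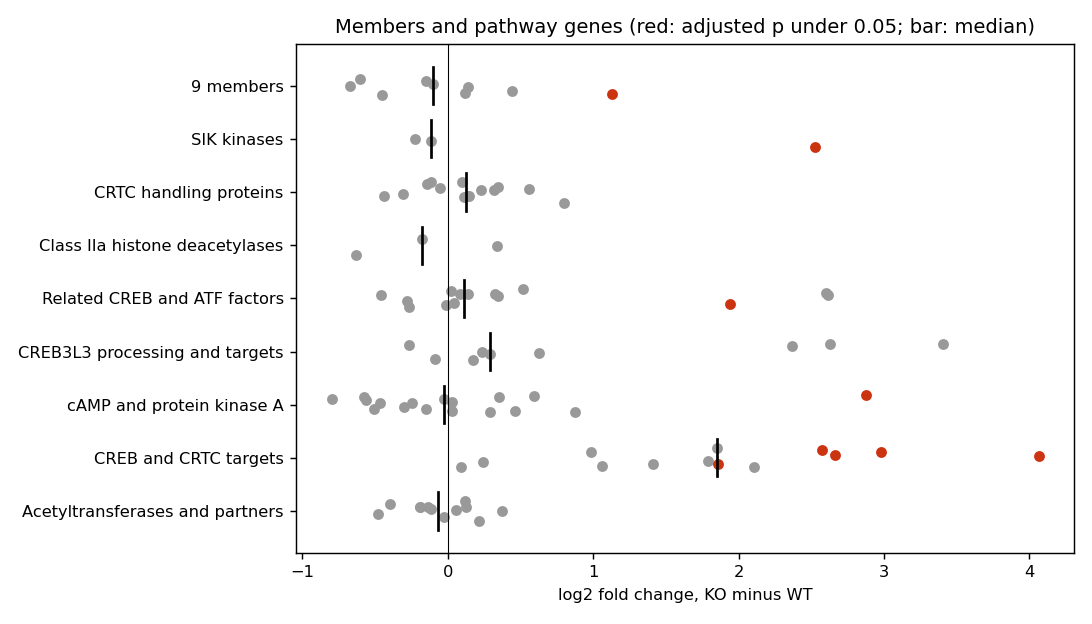
Log2 fold change of KO against WT (horizontal axis) for the 9 genes and the 8 lists, 1 point per gene, red where the adjusted p in edgeR is under 0.05, with the median as a black bar. The list of CREB and CRTC targets has its median at 1.85 and 5 red points, and the medians of the other lists lie between -0.18 and 0.29.

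Among the kinases that hold CRTCs back, Sik1 rose and the other two did not change past the threshold. Sik1, itself a target of CREB, had 79.9, 288 and 189 CPM in KO and 30.5, 24.0 and 42.4 CPM in WT. All KO libraries were above all WT libraries, KO 1 least, and Sik1 rose by 2.52 ± 0.474 on the log2 scale (SE; adjusted p = 0.044 in edgeR). Sik2 lay at 8.98 ± 1.38 CPM in KO and 9.72 ± 0.375 CPM in WT (SD, n = 3), and Sik3 at 41.7 ± 5.74 and 48.6 ± 0.678 CPM, with adjusted p-values of 0.671 and 0.329 in edgeR. The Sik1 call was lost in 5 of the 6 fits that left out a library and held without KO 1, with adjusted p-values from 0.00241 to 0.211.

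Known targets of CREB and CRTC were the list with most calls, with 5 of 13 higher past the threshold, none lower, and 11 with an unadjusted p under 0.05. The median log2 fold change of these 13 genes was 1.85. Nr4a2, an orphan nuclear receptor induced by cAMP, had 7.0, 7.92 and 15.4 CPM in KO and 0.434, 0.559 and 0.812 CPM in WT. It rose by 4.07 ± 0.415 on the log2 scale (SE; adjusted p = 0.0103 in edgeR), and within the Xist pair the log2 ratio was 3.73. Its relative Nr4a1 had 30.4, 53.9 and 47.5 CPM in KO and 4.10, 8.62 and 8.12 CPM in WT (log2 fold change 2.66 ± 0.343, adjusted p = 0.0191). The promoters of both are printed above with 4 half-sites each. The amino acid enzymes Tat and Sds rose by 1.86 ± 0.314 and 2.57 ± 0.436 (adjusted p = 0.0344 and 0.0346 in edgeR). Each of these 2 calls held in 1 of the 6 fits that left out a library, the one without KO 1, with adjusted p-values of up to 0.186 and 0.187. The call of Nr4a2 held in 4 of the 6 (up to 0.0964) and that of Nr4a1 in 2 (up to 0.104), and without WT 2 or WT 3 none of the listed genes passed. Ppargc1a, named here after its value was seen as the fifth gene called, rose by 2.98 (adjusted p = 0.0446). Dusp1, a phosphatase gene with the full element printed above, had a log2 fold change of 1.41 with an adjusted p of 0.0507. The log2 ratio of Sds was 1.06 within the Xist pair and 3.22 among the other libraries, with an interaction adjusted p of 0.0234 in edgeR.

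Of 17 genes for cAMP and protein kinase A, 1 passed the threshold. Pde4d, a phosphodiesterase that breaks down cAMP, had 16.5, 49.6 and 44.8 CPM in KO and 5.60, 4.90 and 4.58 CPM in WT. It rose by 2.88 ± 0.408 on the log2 scale (SE; adjusted p = 0.0249 in edgeR), less within the Xist pair (log2 ratio 1.54) than in the other libraries (3.29), with an interaction adjusted p of 0.0175. Its call held in 1 of the 6 fits that left out a library, the one without KO 1, with adjusted p-values of up to 0.148. Its relatives Pde4b and Pde3b were above WT in every KO library, with log2 fold changes of 0.87 and 0.47 and adjusted p-values of 0.14 and 0.147 in edgeR. The adenylyl cyclase gene Adcy9 was at -0.30 (adjusted p = 0.195). The median of these 17 genes was -0.03.

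Among 14 related CREB and ATF factors 1 rose. Atf5, a factor of the mitochondrial and amino acid stress responses, had 613, 704 and 605 CPM in KO and 206, 145 and 151 CPM in WT, and rose by 1.94 ± 0.203 on the log2 scale (SE; adjusted p = 0.0109 in edgeR). With 1 library left out the call held in 3 of 6 fits, with adjusted p-values of up to 0.104. Creb3l4 (adjusted p = 0.0745) is a neighbour of Crtc2 on chromosome 3, at 90237500 to 90243512, and stayed at or below 1.66 CPM in every library. Atf3, an immediate early factor, had 1.70, 19.6 and 8.11 CPM in KO and 1.37 to 1.87 CPM in WT, with KO 1 among the WT values (adjusted p = 0.1). Crebzf was above WT in every KO library, at 21.2 ± 1.85 against 16.7 ± 0.749 CPM (SD, n = 3), with an adjusted p of 0.127.

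The remaining 3 lists held no call in edgeR. Of 14 genes whose proteins handle CRTCs, 3 had an unadjusted p under 0.05 and 0 passed in DESeq2 or limma voom. Ywhab, a 14-3-3 gene, and Cop1, a ubiquitin ligase that targets CRTC2, had log2 fold changes of -0.30 ± 0.115 and -0.44 ± 0.166 (adjusted p = 0.158 for both), and both were lower in every KO library. Ywhaz, a second 14-3-3 gene, was at 0.56 ± 0.220 (adjusted p = 0.166), and Ppp3cc, a calcineurin subunit gene, at 0.80 ± 0.359 (adjusted p = 0.211).

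Class IIa histone deacetylases are another group of SIK substrates. None of the 3 genes, Hdac4, Hdac5 and Hdac7, passed the threshold in edgeR, DESeq2 or limma voom or had an unadjusted p under 0.05 in edgeR, and their log2 fold changes were 0.34, -0.18 and -0.63. Among the Y-linked libraries Hdac5 and Hdac7 were lower in KO past the threshold (adjusted p = 0.0373 and 0.0301 in edgeR), in a fit where 33.3% of all genes passed. Of 12 acetyltransferases and partners of CREB-binding protein and p300, 2 had an unadjusted p under 0.05, and 1 passed in DESeq2 and 0 in limma voom. The share of all genes passing in DESeq2 is not given here. Ncoa3, a nuclear receptor coactivator, had 19.4 ± 1.99 CPM in KO and 27.1 ± 0.782 CPM in WT (SD, n = 3), with no overlap and an adjusted p of 0.0696. Kat2b, an acetyltransferase that acts with CREB and CRTC2, had a log2 fold change of -0.39 ± 0.156 (adjusted p = 0.168), and Kat2a and Kat6a were at 0.38 and -0.19.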

How the data were processed

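Poly(A) RNA of 6 livers, 1 library per mouse, was sequenced as paired reads. The authors deposited 1 table of expected counts, which are estimated reads per gene and need not be whole (4.93% to 5.47% of the values per library were not). Per the submitters' processing notes, the tools were bcl2fastq 2.17, cutadapt 1.18, STAR 2.7.0f and RSEM 1.3.1, and the notes name mm9. All 55450 gene identifiers, with versions, match GENCODE M21 (GRCm38), from which positions and exon lengths were taken. The use of strand is not given in the sources used here.

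Groups and replicate numbers come from the sample titles, and columns were matched through the sample descriptions (0 unmatched). Expected counts were rounded, filtered with filterByExpr (14539 genes left), scaled by TMM and tested with edgeR 4.0.16 by its quasi-likelihood test on the group alone (R 4.3.3), with Benjamini-Hochberg adjustment over all genes tested and a threshold of 0.05. An SE is the log2 fold change divided by the square root of F. 95% intervals use the total degrees of freedom of that fit (6.93, residual and prior together). Single ratios were compared by exact permutation, with an offset of 0.1 CPM. Correlations used log2 CPM with a prior count of 2. Alternatives were other scalings and filters, DESeq2 1.42.0, limma voom (limma 3.58.1), a replicate block, a term for the Xist or Y-linked state and leaving out libraries. The fits were tested on simulated data with known changes.

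The 9 genes and the 8 lists were chosen with earlier results of these data known. Named genes are Stk11, the 9 genes, up to 4 genes per list with the smallest adjusted p and the 3 genes closest to each called gene; Dusp1 and Ppargc1a were added after their values were seen.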

Additional observations from a re-analysis of the deposited data

Results flagged for a closer look

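The difference of Creb3l3 between KO and WT was not alike in the 4 Y-linked libraries and in the Xist pair by a test of the interaction. The interaction of group with this state was 1.72 on the log2 scale (adjusted p = 0.0293 in edgeR), with log2 ratios of -1.39 in the first subset, where both KO libraries were lower, and 0.34 in the pair. The pair is 1 library against 1, with KO 1 inside the WT range, so its ratio is no shown difference and the replicate spread behind the test comes from the other 4 libraries. A difference of KO 1 from KO 2 and KO 3 for any other reason cannot be told apart from this state.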

How the results depend on the processing

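The 15 alternatives moved calls, and for Creb3l3 and Creb1 the fold changes as well. The log2 fold change of Creb3l3 was -0.67 in the reported fit, -1.39 among the Y-linked libraries and -0.41 without KO 2. The number of the 9 genes past the threshold was 1 in the reported fit, 2 with DESeq2 (Crem and Crtc3), 0 with the replicate block, 5 among the Y-linked libraries and 0 to 4 when 1 library was left out. The number of the 85 list genes past it was 8, against 19 with DESeq2, 3 with the replicate block and 14 with the state as a term. It was 35 of 84 tested among the Y-linked libraries, where 33.3% of all genes passed. When 1 library was left out it was 0 to 30, with 30 reached without KO 1, where 30.2% of all genes passed. For the other alternatives the share of all genes passing is not given here, so their counts cannot be set beside it. The block is not a pairing given by the labels. Same-numbered libraries had correlations of 0.178, 0.0443 and 0.0679 in their deviations from the group means, and only replicate 1 correlated best with its own number, so the adjusted p of Crem with the replicate block (0.0642 in edgeR) is given here alone. Crem kept its direction in all 15 alternatives and its call in 9. Creb1 changed sign in 2, to 0.14 among the Y-linked libraries and 0.05 without KO 1 (its range over the fits that left out 1 library was -0.20 to 0.05), and the other 7 genes kept theirs. Without division by length the difference in the Crtc2 share was 16.3 percentage points, and leaving out 1 library gave 10.4 to 14.6. The ratio differences ranged from 1.11 to 1.39 for Crem to Creb1 and from 0.221 to 0.340 for Crebbp to Ep300 when 1 library was left out. The Creb3l3 interaction passed in all 4 alternatives tried, at 1.69 to 1.79. These changed the scaling or the filter and kept every library, so they cannot show how far the interaction depends on KO 1. The causes of these shifts were not tested. The lowest count of the 9 genes in a library was 246, and the effect of depth was not tested.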
